A study of Mus musculus with 16 samples.

Results

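Normal meiotic maturation was followed in WT mouse oocytes by comparing 4 libraries of MII eggs with 4 libraries of GV oocytes, 8 of the 16 libraries of the series. The labels give the genotype of these females as wildtype without saying whether they carry the floxed allele, and the other 8 libraries come from Psma7 cKO females, in which Zp3-Cre deletes a floxed gene of the 20S proteasome in growing oocytes. GV oocytes, arrested in prophase of the first meiotic division with an intact germinal vesicle, were taken from females 3 to 4 weeks old 44 h after 5 IU PMSG. MII eggs, arrested in metaphase of the second division, were flushed 14 to 16 h after hCG and freed of cumulus cells with 0.3% hyaluronidase, so the stages also differ in hormone treatment and in passage through the oviduct. Each library was made from a pool of cells, whose number the labels give as 5 and the methods of the study give differently, and the replicates are such pools. All 28618 entries of the expression table were taken for the 8 libraries, and 10475 of them, with a mean of at least 1 FPKM, were tested.

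A growing oocyte transcribes and stores messages and then stops. From the resumption of meiosis until the embryonic genome is switched on, no new messages are made, and the stored pool is remodelled by decay, by lengthening and by shortening of poly(A) tails. Short-tailed messages kept by the CPEB1 complex on U-rich elements near the 3′ end are given long tails as maturation proceeds, whereas many housekeeping messages lose their tails through the CCR4-NOT deadenylase, which BTG4 brings to them, and are destroyed. The libraries were primed with oligo-dT, so they sample RNA with a poly(A) tract. FPKM is a number of fragments divided by the length of the transcript and by the size of the library, so it is a share of one library. The amount of a message in a cell and the length of its tail cannot be told apart in these values, and in pooled cells fewer cells and less RNA per cell cannot be told apart either. A transcript whose amount per cell stays the same takes a larger share when most others are lost.

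The libraries were of similar depth. The steps between the smallest FPKM values put it at 11.2 to 15.3 M fragments in GV oocytes and 12.4 to 14.6 M in eggs (exact permutation test, two-sided, p = 1.0, 4 libraries a stage). Pearson's r across tested transcripts on the log2 scale was 0.974 to 0.990 among GV libraries, 0.987 to 0.992 among eggs and 0.791 to 0.833 between the stages. GV replicate 3 stood somewhat apart, with r of 0.974 to 0.981 to the other GV libraries, and the shortest quintile of its transcripts lay 0.23 above them in the median on the log2 scale. Leaving it out moved the number of lower calls by at most 4 and of higher calls by at most 2 in any of the gene lists described here. All 10 oocyte markers were present, with summed FPKM of 13075.5 ± 121.8 in GV oocytes and 13703.4 ± 919.2 in eggs (mean ± SD, n = 4 each), and 3 of them were called lower (Figla, Nlrp5 and Zp3), 1 higher (Oosp1) and 1 held (Bmp15). The germ-cell helicase gene Ddx4 had 26.1 ± 6.46 and 16.0 ± 1.51 FPKM. Of 22 cumulus and granulosa markers, 4 reached 1 FPKM in a stage (Cyp19a1, Cyp11a1, Nr5a2 and Kitl), and the sum of the list was 18.2 to 19.8 FPKM in GV oocytes and 20.0 to 24.5 in eggs. The defining follicle-cell genes Amh, Foxl2, Has2, Ptx3 and Tnfaip6 were below 0.1 FPKM at both stages. Of 10 oviduct markers 1 (Cdh1) reached 1 FPKM, and of 10 blood and immune markers 4 did (Lyz2, Cd68, C1qb and Pecam1). Psma7 itself, the gene of the α4 subunit in the 20S core, had 142.0 to 200.6 FPKM in WT GV oocytes and 97.7 to 172.1 in WT eggs, against 11.1 to 18.0 and 13.6 to 59.9 FPKM in the Psma7 cKO libraries of the same stages.

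As a share of the library, the transcriptome narrowed in maturation. Entries reaching 1 FPKM numbered 10929.8 ± 112.5 in GV oocytes and 9189.5 ± 133.2 in eggs, a difference of -1740.2 (exact permutation test, two-sided, p = 0.029, the smallest that 4 libraries against 4 allow). The 100 most abundant entries held 30.4 ± 1.04% of the summed FPKM in GV oocytes and 42.1 ± 0.173% in eggs (exact permutation p = 0.029, n = 4 and 4). The 10 most abundant alone held 8.01 ± 0.291% and 13.5 ± 0.311%.

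Transcripts were tested with limma on log2 FPKM, with values below 1 set to 1 and p adjusted by Benjamini-Hochberg. A transcript was called lower or higher in eggs at an adjusted p under 0.05 and at least 2-fold, and it was called held when the 95% confidence interval of its change lay within 1.5-fold in both directions. By these rules 3642 transcripts were lower, 34.8% of those tested, and 801 were higher, 7.65%. A further 1837, or 17.5%, were held, and 4195 met none of the rules. The values of the stages did not overlap for 99.0% of the lower and 97.6% of the higher transcripts, against 72.7% of all tested. Falls were also deeper than rises. Among the lower transcripts the median fold was 3.66 and 395 exceeded 10-fold, whereas among the higher ones the median fold was 2.37 and 1 exceeded 10-fold. The lower transcripts together went from 38.2 ± 0.387% to 9.22 ± 0.257% of the summed FPKM, and the higher ones from 12.7 ± 1.07% to 35.7 ± 0.64%. The held transcripts kept 18.0 ± 0.34% and 18.5 ± 0.356%. Calls in the gene lists given later are to be read against the 34.8% lower, 7.65% higher and 17.5% held of all tested. Medians of lists are to be read against that of all tested. The median log2 fold change over all tested transcripts was -0.44 with quartiles of -1.42 and 0.36. Without the mitochondrially encoded and Rn18s-rs5 entries, which rise in eggs, it was -0.33, and the lower and higher calls were 3390 and 1038. Without GV replicate 3 the calls were 3736 and 893. Among the genes named here, the calls of Birc5, Dazl, Dcp2, Gmnn, Sall4, Slbp and Spin1, whose log2 fold changes were 1.01 to 1.08 in size, were lost when some library was left out, with no change of direction.

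**Figure D1:**
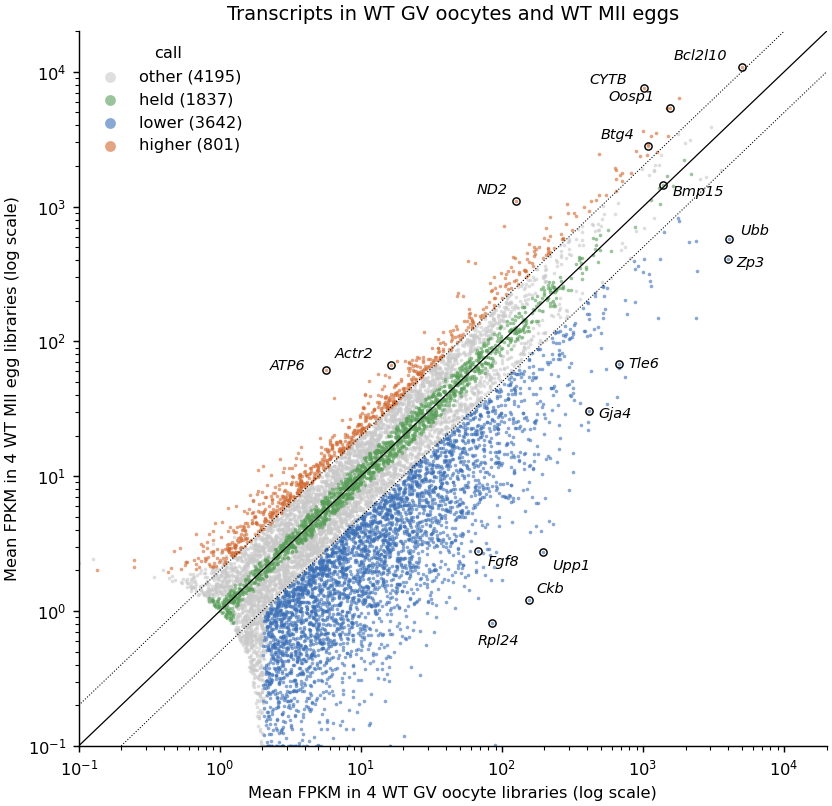
Mean FPKM of the 10475 tested transcripts in the 4 WT GV oocyte libraries (horizontal) and the 4 WT MII egg libraries (vertical), both on log axes, with means under 0.1 drawn at 0.1. The solid line marks equal values and the dotted lines 2-fold, colours give the call, and 3642 lower transcripts lie below the diagonal against 801 higher ones above it, with Ckb at 155.2 and 1.21 FPKM among the farthest.

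The level in GV oocytes made little difference above the lowest values. With transcripts divided by GV level into 5 quintiles of equal number, in the 4 upper quintiles, from 2.65 to 5035.4 FPKM, between 39.0 and 41.0% of transcripts were lower and between 6.35 and 8.16% were higher. In the lowest quintile 12.7% were lower and 9.83% higher. There the floor of 1 FPKM leaves little room for a fall. Entries with a GV mean under 1 FPKM also passed the filter on all 8 libraries only with higher egg values, so this quintile is not comparable with the others.

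The deepest fall was that of Ckb, the brain-type creatine kinase, which moves high-energy phosphate between creatine and ATP (GRCm38 chr12:111669361-111672338, minus strand). It had 199.1, 156.9, 114.7 and 149.9 FPKM in the GV libraries and 1.26, 1.11, 1.13 and 1.33 FPKM in the egg libraries. The stages were far apart, with a log2 fold change of -6.98 (SE 0.15, limma adjusted p = 3.4e-10). Upp1, which encodes uridine phosphorylase, an enzyme of pyrimidine salvage, went from 195.8 ± 7.75 to 2.76 ± 0.661 FPKM (log2 fold change -6.18, SE 0.16). Ribosomal protein genes were also among the deepest falls. Rpl24 had 76.4, 66.2, 106.4 and 90.1 FPKM in GV oocytes and 0.834, 1.31, 0.309 and 0.782 FPKM in eggs, so that every egg value was near or below the floor. Its log2 fold change of -6.29 (SE 0.16) is limited by that floor. Rpl23a (100.3 to 1.71 FPKM) and Rpl6 (107.9 to 2.48 FPKM) had log2 fold changes of -5.92 and -5.43. Among the 12 deepest falls were also genes of mitochondria, namely Ndufb7 of respiratory complex I (67.3 to 1.25 FPKM), Mrpl33 of the mitochondrial ribosome (46.7 to 1.06), Smim20, needed for cytochrome oxidase assembly (217.0 to 4.62), and Fam162a (230.0 to 4.44). The list was completed by Sgta, a co-chaperone (83.3 to 1.70 FPKM), Fcf1, which acts in ribosomal RNA processing (188.0 to 3.92), and 1 of 2 entries of Apitd1, a histone-fold partner at the centromere (89.5 to 0.101). The other Apitd1 entry was called lower as well, from 253.3 to 79.0 FPKM.

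Rises were led by the mitochondrial genome. ATP6, a subunit of the ATP synthase, had 5.84, 5.76, 6.82 and 4.18 FPKM in GV oocytes and 57.7, 52.3, 54.0 and 80.7 FPKM in eggs. It rose by 3.44 on the log2 scale (SE 0.17, limma adjusted p = 2.02e-08), with no overlap between stages. ND2, CYTB, ND4, ND5, COX2 and ND1 were among the 12 highest rises as well. Of the nuclear genes, Omt2b and Omt2a, a pair of neighbouring genes named for oocyte maturation, went from 64.1 ± 10.6 to 383.5 ± 61.9 FPKM and from 48.8 ± 5.28 to 230.4 ± 30.8 FPKM. BC048502 and LOC102635521 were low, at 1.86 to 11.1 and 2.03 to 11.9 FPKM. Of the 2 entries of Med11, a Mediator subunit gene, 1 went from 6.48 ± 1.82 to 38.3 ± 5.42 FPKM (log2 fold change 2.59), while the other was below 1 FPKM at both stages, at 0.783 and 0.142.

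The most abundant messages changed their order. Bcl2l10, an anti-apoptotic protein of the BCL2 family (chr9:75347758-75351632, plus strand), led at both stages, with 4804.1, 4837.7, 5776.6 and 4723.2 FPKM in GV oocytes and 10807.3, 11075.5, 10741.6 and 10806.3 FPKM in eggs. It rose by 1.11 on the log2 scale (SE 0.09). Ubb, a polyubiquitin gene, and Zp3 followed it in GV oocytes and left the first 10 in eggs. Of the other GV leaders, Ldhb, a subunit of lactate dehydrogenase, had 3011.6 ± 301.2 and 3876.7 ± 609.3 FPKM and remained among the first 10, whereas Nlrp14 (3556.9 to 1878.7 FPKM), Gdf9, Zp2, Gm15698 (2513.7 to 1599.4), Gm813 (2391.3 to 150.1) and E330017A01Rik (2387.6 to 556.5) did not. Their places in eggs were taken by CYTB, COX1, the ribosomal RNA entries Rn18s-rs5 and mt-Rnr2, and 4 nuclear genes. These were Oosp1, Rfpl4, which encodes an oocyte RING-finger protein (1242.9 ± 154.5 to 3525.1 ± 182.3 FPKM), H1foo, the oocyte linker histone, and Rbbp7, a histone-binding chaperone (1496.3 ± 122.1 to 3369.3 ± 156.2 FPKM).

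Messages of the cytosolic ribosome were strongly depleted. Of 46 tested genes of the large subunit 34 were lower and 0 higher, with a median log2 fold change of -2.26, and of 30 of the small subunit 25 were lower and 1 higher, with a median of -2.28. Their share of the summed FPKM went from 0.857 ± 0.109 to 0.399 ± 0.0413% and from 0.511 ± 0.0778 to 0.159 ± 0.0162%. Rps27a, which encodes a fusion of ubiquitin and a ribosomal protein, went from 173.9 ± 29.0 to 4.27 ± 0.72 FPKM (log2 fold change -5.35), and Rps13, the most abundant of the small-subunit list in GV oocytes, from 362.1 ± 76.2 to 23.8 ± 6.0 FPKM. Rpl4, the most abundant of the large-subunit list, fell less, from 399.1 ± 20.2 to 160.3 ± 12.7 FPKM. The family was not uniform. Rps15a rose from 12.5 ± 2.70 to 27.0 ± 2.39 FPKM (log2 fold change 1.12, SE 0.15), and Rpl41 had 93.0, 98.7, 141.2 and 127.6 FPKM in GV oocytes and 203.7, 250.5, 179.5 and 140.2 FPKM in eggs, with 1 overlapping value. Reads of ribosomal protein genes are shared with many processed pseudogenes, which limits single values in this family.

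Other parts of the translation machinery followed in part. Of 18 cytosolic aminoacyl-tRNA synthetases, which charge tRNAs with amino acids, 11 were lower and 0 higher (median -1.39), with Qars, the glutamine enzyme, from 142.6 ± 12.6 to 14.5 ± 1.47 FPKM and the abundant Rars, the arginine enzyme, from 267.3 ± 3.80 to 82.7 ± 5.38. The initiation factors were divided, with 17 lower, 3 higher and 12 held of 38 (median -0.51). Eif3l, a subunit of eIF3, fell by 5.08 on the log2 scale, from 65.1 ± 5.64 to 1.94 ± 0.288 FPKM, and the abundant Eif1ax, an eIF1A gene, went from 680.2 ± 101.8 to 64.0 ± 6.18 FPKM. Eif4a2, an RNA helicase of the cap-binding complex, rose from 81.4 ± 10.4 to 197.6 ± 15.8 FPKM, and Eif2b1, of the factor that recycles eIF2, rose from 163.8 ± 14.5 to 383.0 ± 14.8 FPKM. The cap-binding proteins changed by less than 2-fold, in opposite directions and without overlap between stages. Eif4e had 59.5 and 34.3 FPKM (log2 fold change -0.80), and its oocyte paralogue Eif4e1b had 11.1 and 14.9 FPKM (0.44).

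**Figure D2:**
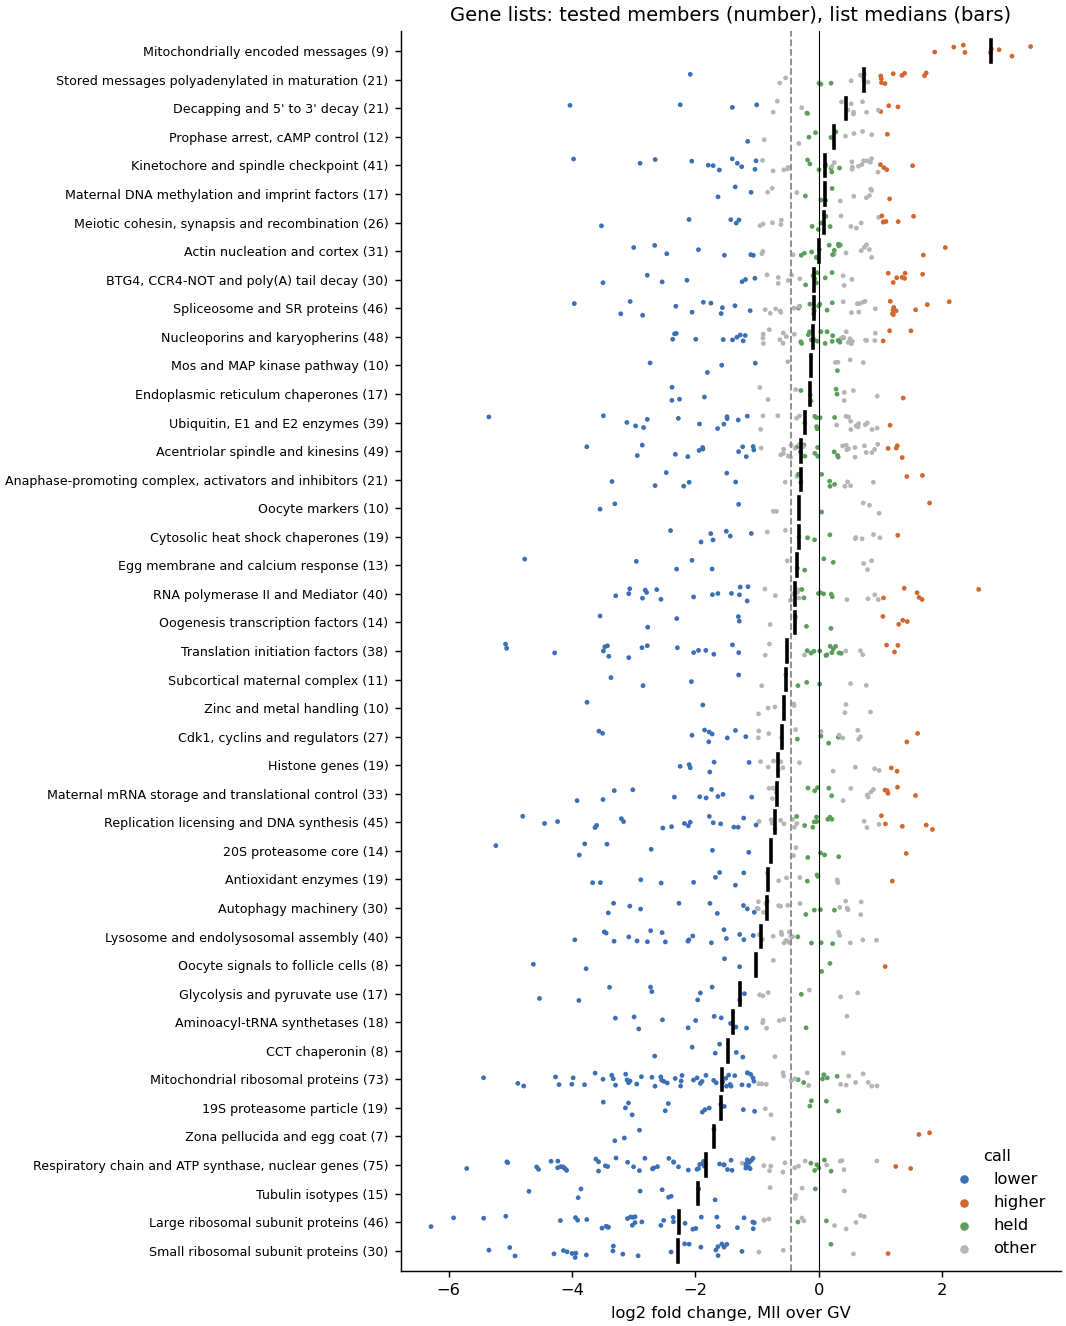
Log2 fold change from WT GV oocytes to WT MII eggs for the tested members of each gene list (horizontal), one list to a row with the number tested in brackets, points coloured by call and black bars at list medians. The dashed line is the median of all tested transcripts, -0.44; ribosomal protein lists lie lowest with medians of -2.28 and -2.26, and mitochondrially encoded messages lie highest with 2.79.

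Nuclear and mitochondrial genes for the same respiratory complexes went in opposite directions. Of 75 tested nuclear genes for the respiratory chain and ATP synthase 53 were lower, 2 higher and 6 held (median -1.83), and of 73 genes for mitochondrial ribosomal proteins 50 were lower, 0 higher and 6 held (median -1.56). All 9 tested messages of the mitochondrial genome were higher, with a median of 2.79. This last list was chosen after its values were seen. The nuclear respiratory list held 1.12 to 1.43% of the summed FPKM in GV libraries and 0.615 to 0.755% in egg libraries. The mitochondrially encoded messages held 0.615 to 0.802% and 3.97 to 4.24%. In these FPKM values the nuclear set was thus the larger in every GV library and the smaller in every egg library. COX3, ND3, ND4L and ATP8 added almost nothing to the mitochondrial sum, at 1.65 FPKM or less in every library. Whether reads of such messages were lost in mapping was not tested, so the order of the sets in GV oocytes is uncertain.

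CYTB, of respiratory complex III, had 907.2, 1085.9, 1214.4 and 849.6 FPKM in GV oocytes and 8019.8, 7228.6, 7267.6 and 8034.1 FPKM in eggs (log2 fold change 2.93, SE 0.12, limma adjusted p = 4.19e-09). Genes of complex I behaved alike, with ND1 at 491.2 ± 87.5 and 2466.3 ± 107.5 FPKM, ND2 at 126.0 ± 24.5 and 1092.9 ± 61.6, ND4 at 104.0 ± 18.5 and 717.4 ± 33.4, ND5 at 57.2 ± 5.96 and 393.9 ± 28.2 and ND6, the only message of the opposite strand, at 47.7 ± 8.34 and 218.2 ± 42.8. Of cytochrome oxidase, COX1 went from 1002.6 ± 136.1 to 3667.7 ± 93.3 FPKM and COX2 from 2.68 ± 0.855 to 13.4 ± 0.19. Mitochondrial messages are cut from long shared precursors, but their mean levels in GV oocytes ranged from 2.68 FPKM for COX2 to 1014.3 for CYTB among those tested. COX3, ND3, ND4L and ATP8 were too low to be tested, at 1.65 FPKM or less in every library. The ribosomal RNAs of the organelle rose as well, mt-Rnr1 from 324.8 ± 51.7 to 895.9 ± 59.2 and mt-Rnr2 from 1472.5 ± 253.4 to 5368.9 ± 261.9 FPKM. Rn18s-rs5, an entry of cytosolic 18S ribosomal RNA, which carries no stable poly(A) tail, also rose, from 1803.7 ± 236.1 to 6448.7 ± 566.4 FPKM (log2 fold change 1.84, SE 0.11).

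**Figure D3:**
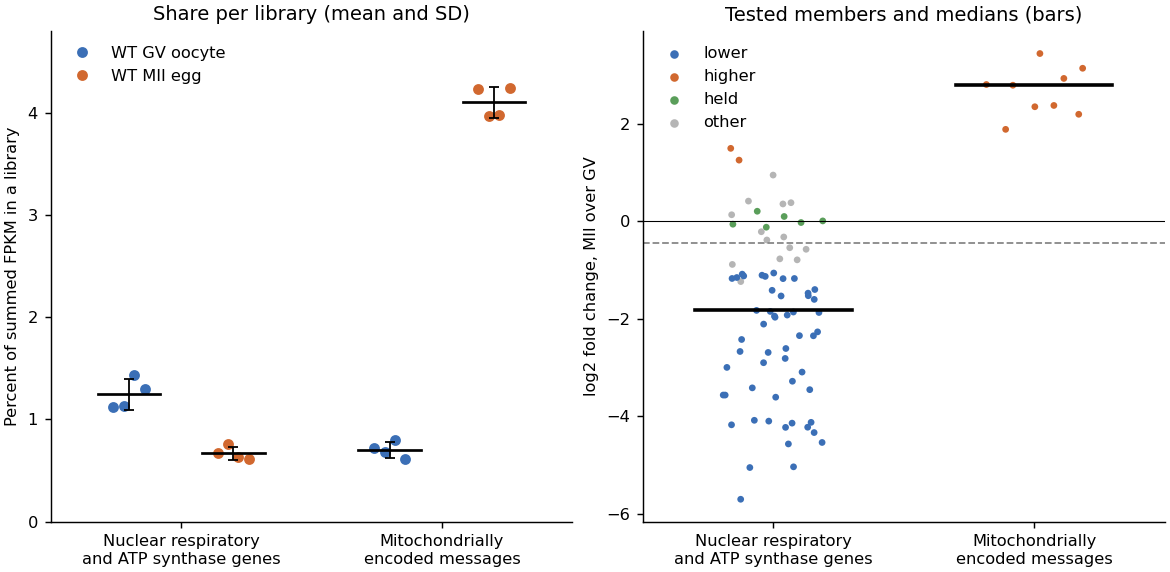
Left, percent of summed FPKM in each library for 76 nuclear genes of the respiratory chain and ATP synthase and for 13 mitochondrially encoded messages, with mean and SD (n = 4 libraries a stage). Right, log2 fold change of their tested members with medians as bars and the median of all tested transcripts dashed: the nuclear genes have a median of -1.83 and the mitochondrially encoded messages lie between 1.88 and 3.44.

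Within the nuclear respiratory list lower genes were found in every complex, 25 of 36 tested in complex I, 3 of 4 in complex II, 7 of 9 in complex III, 5 of 11 in complex IV and 12 of 14 in the ATP synthase. Sdhb of complex II went from 26.0 ± 5.42 to 1.56 ± 0.701 FPKM, Cyc1 of complex III from 12.7 ± 0.745 to 1.01 ± 0.173, and Cox4i1 of complex IV from 119.8 ± 26.5 to 6.91 ± 1.21. Cox5a, the most abundant in GV oocytes, fell from 417.2 ± 75 to 159.1 ± 40.6 FPKM. Against these stood Atp5b, the catalytic subunit of the ATP synthase, which was held at 262.1 ± 20.4 and 279.1 ± 13.1 FPKM, and Ndufa4 and Cox8a, both of complex IV, which rose from 89.6 ± 21.1 to 247.7 ± 24.7 and from 144.3 ± 34.8 to 339.1 ± 58.1 FPKM. Uqcrc2 of complex III had 76.0 ± 3.23 and 146.2 ± 8.13 FPKM (log2 fold change 0.94), just under the 2-fold required. Among the mitochondrial ribosomal proteins, Mrpl12 fell from 200.8 ± 13.8 to 6.92 ± 1.35 FPKM and the abundant Mrps33 from 207.7 ± 38.8 to 70.6 ± 13.1.

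Genes of energy use outside the organelle also fell. In glycolysis and pyruvate use, 10 of 17 were lower and 0 higher (median -1.28), led by Pkm, pyruvate kinase, from 163.4 ± 39.4 to 7.04 ± 1.53 FPKM, with Gpi1, glucose phosphate isomerase, from 27.6 ± 5.11 to 1.89 ± 0.527 and Slc2a1, a glucose transporter, from 42.7 ± 9.05 to 6.42 ± 1.27. The summed share of the list overlapped between stages, at 0.916 ± 0.069 and 1.06 ± 0.146%, and Ldhb, which was not called, made up most of that sum. Gapdh, commonly used as a reference gene, was below 1.2 FPKM in every library and was not tested, and its reads are shared with many pseudogenes. Of antioxidant enzymes 9 of 19 were lower and 1 higher (median -0.83). Gpx4, which reduces lipid peroxides, fell from 15.0 ± 3.01 to 1.12 ± 0.271 FPKM and Sod1, which removes superoxide, from 32.4 ± 6.10 to 7.98 ± 1.65, whereas Prdx1, a peroxiredoxin, rose from 1066.3 ± 149.7 to 2423.2 ± 84.5. Glrx, glutaredoxin, fell from 1314.5 ± 202.1 to 408.8 ± 21.2 FPKM.

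In protein quality control, the proteasome is described by its regulatory particle and its core, and the difference between them was not tested. The 19S particle, which recognises and unfolds ubiquitinated proteins, had 13 of 19 genes lower and 0 higher (median -1.59), and its share went from 0.489 ± 0.0147 to 0.196 ± 0.00158%. The 20S core, the proteolytic barrel, had 7 of 14 lower, 1 higher and 4 held (median -0.77), and its shares of 0.438 ± 0.0577 and 0.430 ± 0.0217% overlapped. Psmb7, which encodes the trypsin-like subunit, had 267.0, 279.6, 365.5 and 288.2 FPKM in GV oocytes and 7.50, 8.93, 7.27 and 8.04 FPKM in eggs (log2 fold change -5.23, SE 0.11), while Psma2, an α ring subunit, went the other way from 283.1 ± 59.6 to 748.0 ± 70.2 FPKM (log2 fold change 1.42, SE 0.13). Psma7 was between them, with overlapping stages and a log2 fold change of -0.41 (SE 0.16, limma adjusted p = 0.0407). Psmd6 fell by 3.49 on the log2 scale in the 19S list, and Psmd4, a ubiquitin receptor and its most abundant member, went from 476.3 ± 20.4 to 128.9 ± 8.47 FPKM.

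The polyubiquitin gene Ubb fell in eggs. It had 3703.2, 4528.8, 4518.6 and 3638.9 FPKM in GV oocytes and 517.9, 549.0, 514.9 and 716.9 FPKM in eggs (log2 fold change -2.84, SE 0.13). The list of ubiquitin and its E1 and E2 enzymes had 39 tested genes. Of these 14 were lower (35.9% against 34.8% of all transcripts), 1 higher (2.56% against 7.65%) and 7 held (median -0.23). Uba1, the main activating enzyme, fell from 15.6 ± 3.02 to 5.59 ± 1.18 FPKM. The conjugating enzyme gene Ube2d3 had 1104.5 ± 81.1 and 1718.9 ± 108.8 FPKM (log2 fold change 0.64), and Ube2d1 rose from 4.16 ± 0.879 to 9.13 ± 0.542. Among chaperones, the CCT complex, which folds actin and tubulin, had 6 of 8 lower and 0 higher (median -1.47), with the abundant Cct5 from 517.2 ± 26.0 to 161.9 ± 13.3 FPKM and Cct6a from 9.43 ± 4.36 to 1.41 ± 0.249. Cytosolic heat shock chaperones were mixed, with 7 of 19 lower (36.8% against 34.8% of all transcripts), 1 higher and 3 held (median -0.32). Hspa8, the constitutive HSP70, fell from 249.7 ± 10.5 to 74.5 ± 8.43 FPKM and Dnajb1, one of its co-chaperones, from 92.5 ± 8.57 to 17.5 ± 1.71, while Hsp90aa1 had 1990.6 ± 257.5 and 2984.3 ± 104.0 FPKM (log2 fold change 0.59) and Hspb1 rose from 5.12 ± 1.51 to 12.6 ± 4.12. In the endoplasmic reticulum, 4 of 17 were lower, 1 higher and 5 held (median -0.14). Calr, the lectin chaperone calreticulin, fell from 187.5 ± 23.1 to 35.9 ± 3.08 FPKM and Pdia4, a disulphide isomerase, from 36.9 ± 4.33 to 7.09 ± 0.78. Hsp90b1 was held at 178.3 ± 10.8 and 219.1 ± 14.0 FPKM, and Ern1, the stress sensor IRE1, rose from 23.5 ± 1.04 to 60.9 ± 4.45.

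The lists of lysosomal and autophagy genes held 0 higher members. In the lysosome and endolysosomal assembly list 19 of 40 were lower (47.5%), 0 higher and 4 held (median -0.94), and its share went from 0.563 ± 0.0155 to 0.383 ± 0.000643%. Atp6v1e1, a proton pump subunit, fell from 71.9 ± 29.9 to 4.34 ± 0.465 FPKM, Ctsb, a cathepsin protease, from 25.5 ± 4.05 to 2.27 ± 0.130, and Lamp1, the lysosomal membrane protein and most abundant of the list, from 303.0 ± 35.6 to 124.1 ± 5.12. Rufy1, a structural organiser of the oocyte's endolysosomal assemblies, fell from 54.1 ± 6.02 to 16.1 ± 1.06 FPKM. Of 30 autophagy genes 10 were lower, or 33.3% against 34.8% of all transcripts tested, 0 higher and 4 held (median -0.84). Without GV replicate 3, 14 of the 30 were lower, against 3736 of 10389 transcripts tested, so this count depends on that library. Atg13 fell from 11.2 ± 1.58 to 0.967 ± 0.155 FPKM and Atg4b from 85.7 ± 7.98 to 8.53 ± 0.530, whereas Atg5, the most abundant of the list, was held at 394.7 ± 12.3 and 341.9 ± 17.3 and Becn1 at 20.7 ± 2.33 and 21.1 ± 1.49. Of 10 tested genes of zinc and metal handling 2 were lower and 0 higher (median -0.56), and these were the ferritin heavy chain Fth1 (114.9 ± 22.9 to 8.58 ± 2.11 FPKM) and the zinc transporter Slc30a6 (3.76 ± 0.915 to 0.658 ± 0.139). The light chain Ftl1, which assembles with Fth1, had 102.7 ± 16.1 and 141.3 ± 35.8 FPKM with overlapping stages.

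Genes of transcription and splicing were divided between falls and rises. Of 40 genes for RNA polymerase II and Mediator 16 were lower, 6 higher and 7 held (median -0.38), and their summed share was 0.990 ± 0.0687% in GV oocytes and 1.27 ± 0.0445% in eggs. Med30 rose from 293.5 ± 41.0 to 900.4 ± 28.0 FPKM, while Med29 fell from 9.91 ± 1.73 to 0.662 ± 0.101. Polr2c, a subunit of the polymerase, had 521.5 ± 19.2 and 1018.5 ± 39.7 FPKM (log2 fold change 0.97), and Polr2a, its largest subunit, had 1.04 ± 0.288 and 1.17 ± 0.222. Spliceosome and SR proteins had 12 lower, 9 higher and 9 held of 46, with a median of -0.08 that ranged from -0.18 to 0.03 over the alternatives. Here Snrpe, a core Sm protein, rose from 28.0 ± 8.57 to 118.1 ± 12.7 FPKM (log2 fold change 2.12), whereas Snrpd2, which binds in the same ring, fell from 100.4 ± 21.4 to 7.19 ± 3.42 (log2 fold change -3.96). Snrnp27 rose from 122.0 ± 14.7 to 282.7 ± 24.0 FPKM. Nucleoporins and karyopherins had 10 lower, 3 higher and 15 held of 48 (median -0.10). Kpna2, a nuclear import receptor, fell from 1121.0 ± 64.5 to 281.3 ± 5.29 FPKM and the importin gene Ipo9 from 11.3 ± 1.27 to 2.19 ± 0.102 FPKM. The oocyte relative of Kpna2, Kpna7, had 515.7 ± 53.6 and 275.4 ± 13.7 (log2 fold change -0.90). Nup37 rose from 173.2 ± 24.5 to 485.5 ± 26.5.

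Replication licensing and DNA synthesis genes were divided between subunits of one complex. Of 45 tested, 19 were lower, 5 higher and 9 held (median -0.71). Rpa2, a subunit of the single-strand binding protein RPA, fell from 173.7 ± 5.18 to 6.31 ± 1.04 FPKM, and Rpa3, its smallest subunit, rose from 119.4 ± 26.7 to 421.6 ± 22.3. Likewise Orc6 of the origin recognition complex rose from 82.0 ± 14.1 to 272.2 ± 15.7 FPKM while Orc5 had 887.9 ± 46.9 and 665.0 ± 67.4. Mcm5, of the replicative helicase, fell from 50.1 ± 10.6 to 2.27 ± 0.305 FPKM and Cdt1, which loads it, from 74.6 ± 15.1 to 17.1 ± 2.42, and Gmnn, which inhibits CDT1, rose from 70.6 ± 9.05 to 148.7 ± 8.59. Of 17 factors of DNA methylation and imprint maintenance 3 were lower, 1 higher and 4 held. Dnmt1, the maintenance methyltransferase, was held at 220.7 ± 17.1 and 239.4 ± 31.8 FPKM, Tet3, which oxidises methylcytosine in the zygote, rose from 38.2 ± 5.60 to 84.5 ± 9.61, and the enzymes of imprint establishment fell, Dnmt3a from 13.3 ± 1.65 to 6.19 ± 0.359, Dnmt3l from 19.8 ± 4.36 to 7.64 ± 0.828 and Kdm1b from 57.3 ± 15.4 to 18.0 ± 1.24. Dppa3, which protects the maternal genome from demethylation, had 370.0 ± 61.7 and 653.4 ± 94.8 FPKM (log2 fold change 0.82).

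Histone genes took a larger share in eggs, while their calls were close to those of all transcripts. The list held 0.716 ± 0.0259% of the summed FPKM in GV oocytes and 1.42 ± 0.0211% in eggs, with 6 lower and 2 higher of 19 tested, or 31.6 and 10.5% against 34.8 and 7.65% overall. Most of the sum is H1foo, with 1637.9, 1776.7, 1880.7 and 1730.4 FPKM in GV oocytes and 3479.1, 3591.3, 3405.1 and 3358.6 in eggs (log2 fold change 0.98, SE 0.08). The genes of the replacement histone H3.3 rose, H3f3a from 260.4 ± 43.1 to 626.1 ± 86.8 FPKM and H3f3b from 542.7 ± 49.6 to 1227.9 ± 125.7, and so did Slbp, which binds histone messages, from 1257.1 ± 129.2 to 2538.2 ± 179.1. H2afv and H2afx, genes of H2A variants, fell from 15.3 ± 1.94 to 3.27 ± 0.790 and from 87.6 ± 11.2 to 25.8 ± 3.35 FPKM.

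Messages for the zona pellucida, the coat of the egg, were strongly reduced. Zp3, which encodes a zona glycoprotein (chr5:135980099-135988624, plus strand), had 3949.3, 4016.1, 4053.7 and 3887.5 FPKM in GV oocytes and 406.5, 487.0, 411.2 and 321.0 FPKM in eggs. The stages differed by -3.31 on the log2 scale (SE 0.11, limma adjusted p = 1.71e-09). Zp1 and Zp2 fell in parallel, from 1271.7 ± 73.9 to 148.1 ± 45.1 and from 2401.4 ± 121.4 to 334.1 ± 112.1 FPKM. Astl, the cortical granule protease ovastacin that cuts ZP2 at fertilisation, fell from 387.0 ± 54.4 to 118.7 ± 11.9 FPKM. In the opposite direction, the secreted oocyte proteins of the list rose, Oosp1 from 1392.4, 1237.9, 2041.8 and 1569.1 FPKM to 5618.1, 6028.0, 5294.1 and 4498.7, and Oosp3 from 632.3 ± 136.9 to 1929.0 ± 215.2. The 7 tested genes of this list therefore held 4 lower and 2 higher ones.

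The egg membrane and calcium response list had 13 tested genes. Of these 5 were lower (38.5% against 34.8% of all transcripts), 0 higher and 4 held (median -0.35). Orai1, a store-operated calcium channel, fell from 77.8 ± 12.7 to 2.86 ± 0.493 FPKM, and Cd9 and Izumo1r, the egg proteins needed for sperm fusion and binding, fell from 233.4 ± 46.4 to 47.0 ± 7.27 and from 103.7 ± 12.3 to 25.2 ± 4.82. Itpr1, the calcium release channel, had 4.78 ± 0.254 and 5.63 ± 0.382 FPKM and was held, as was Wee2, the oocyte kinase that inhibits CDK1, at 306.0 ± 14.2 and 240.8 ± 14.5. The subcortical maternal complex is a lattice-associated assembly needed for cleavage. In its list 4 of 11 were lower (36.4% against 34.8% of all transcripts) and 3 held (median -0.53). Tle6 had 779.2, 752.2, 467.9 and 711.1 FPKM in GV oocytes and 69.5, 77.9, 87.1 and 36.4 FPKM in eggs (log2 fold change -3.37, SE 0.26), and Nlrp2, Khdc3 and Nlrp5 fell from 430.1 ± 45.3 to 60.0 ± 9.01, from 164.7 ± 19.5 to 40.7 ± 12.3 and from 1008.1 ± 93.6 to 411.0 ± 50.8. Ooep and Padi6, partners in the same complex, were held at 1636.6 ± 313.2 and 1420.0 ± 212.8 and at 207.7 ± 26.7 and 211.7 ± 43.2 FPKM. Zbed3 had 2167.1 ± 259.9 and 3096.3 ± 333.5 FPKM (log2 fold change 0.52).

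Signals from oocyte to follicle cells separated into lost and kept messages. Gja4, connexin 37, which builds the gap junctions with granulosa cells, fell from 415.2 ± 51.4 to 30.4 ± 3.30 FPKM (log2 fold change -3.77), and Fgf8, a growth factor for cumulus cells, from 67.8 ± 6.07 to 2.77 ± 0.488 (-4.63). Bmp15, a growth factor of the same cross-talk, had 1416.8, 1408.3, 1343.9 and 1406.1 FPKM in GV oocytes and 1436.3, 1441.9, 1523.5 and 1359.4 FPKM in eggs, and was held with a log2 fold change of 0.05 (SE 0.07). Its partner Gdf9 had 2933.9, 3064.1, 2195.6 and 2966.7 FPKM in GV oocytes and 1649.8, 1626.4, 1870.0 and 1519.4 in eggs (log2 fold change -0.74, SE 0.12), and Kit, the receptor for granulosa kit ligand, was held at 48.1 ± 4.52 and 54.4 ± 2.72. Furin, which cleaves precursors of growth factors, rose from 3.33 ± 0.354 to 7.05 ± 0.922 FPKM.

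Transcription factors of oogenesis also parted. The factors that open the oocyte programme in early follicles fell, with Figla from 18.5 ± 4.08 to 1.60 ± 0.426 FPKM (log2 fold change -3.55), Lhx8 from 119.1 ± 15.5 to 17.4 ± 1.52 (-2.77) and Nobox from 221.4 ± 31.6 to 44.8 ± 5.17 (-2.30). Homeobox genes of the Obox family rose, with Obox5 from 1079.5 ± 168.6 to 2899.2 ± 148.4 FPKM (log2 fold change 1.44), Obox1 from 334.8 ± 64.2 to 853.6 ± 88.9 and Obox2 from 461.4 ± 103.7 to 1126.0 ± 184.6, as did Sall4 from 129.6 ± 10.8 to 267.2 ± 31.9. Obox genes lie in a cluster of near copies, so reads may be shared between them. Of 14 tested, 5 were lower (35.7% against 34.8% of all transcripts), 4 higher (28.6% against 7.65%) and 2 held. The share of the list went from 0.615 ± 0.0547 to 1.33 ± 0.102%.

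**Figure D4:**
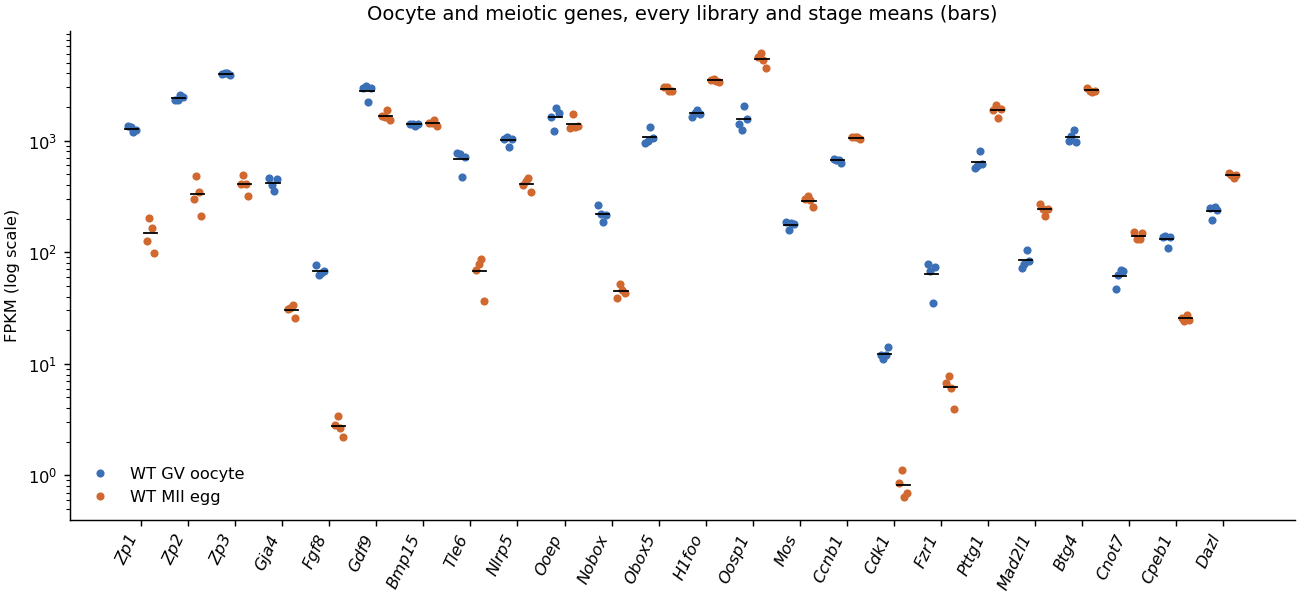
FPKM on a log scale of oocyte and meiotic genes in each WT GV oocyte library and each WT MII egg library, with black bars at stage means. Zona genes, Gja4, Fgf8, Tle6, Nobox, Cdk1, Fzr1 and Cpeb1 lie lower in all 4 egg libraries, Bmp15 and Ooep overlap between stages, and Oosp1, Obox5, Pttg1, Mad2l1, Btg4, Cnot7 and Dazl lie higher in all 4.

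CDK1 with cyclin B drives the meiotic divisions, and the messages of the pair went different ways. Cdk1 had 11.9, 11.0, 11.9 and 14.0 FPKM in GV oocytes and 0.848, 1.12, 0.635 and 0.689 FPKM in eggs (log2 fold change -3.56, SE 0.12), and Cdk2 fell from 13.2 ± 3.63 to 1.13 ± 0.270. Ccnb1, cyclin B1, had 688.8, 664.8, 674.8 and 628.0 FPKM and then 1067.6, 1068.7, 1083.7 and 1024.9 FPKM (log2 fold change 0.68, SE 0.07), below the 2-fold required but without overlap, and Ccnb2 was held at 32.4 ± 0.625 and 40.6 ± 5.04. The small CDK-binding proteins rose, Cks1b from 149.3 ± 28.7 to 450.6 ± 53.5 FPKM and Cks2 from 27.4 ± 6.37 to 72.8 ± 9.57. Polo-like kinase Plk1 fell from 97.3 ± 15.5 to 28.3 ± 3.35 FPKM. In this list 10 of 27 were lower (37.0% against 34.8% of all transcripts), 2 higher (7.41% against 7.65%) and 4 held (median -0.60).

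Cytostatic factor keeps the egg at metaphase through MOS and the MAP kinases. Mos had 185.4, 156.6, 181.5 and 178.5 FPKM in GV oocytes and 300.0, 316.0, 291.5 and 252.4 in eggs (log2 fold change 0.72, SE 0.09), and Map2k1, the kinase it activates, was held at 57.0 ± 7.78 and 70.1 ± 7.03. Mapk3, which encodes a MAP kinase, fell from 175.3 ± 12.9 to 54.7 ± 22.3 FPKM, and Map2k2 fell from 20.0 ± 5.26 to 3.13 ± 1.38. In the list 4 of 10 were lower (40.0% against 34.8% of all transcripts), 0 higher and 1 held (median -0.12).

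The anaphase-promoting complex is the ubiquitin ligase that ends metaphase. In its list 7 of 21 were lower (33.3% against 34.8% of all transcripts), 2 higher (9.52% against 7.65%) and 6 held (median -0.29). Fzr1, its activator during prophase arrest, had 78.8, 67.4, 35.1 and 73.3 FPKM in GV oocytes and 6.71, 7.83, 6.04 and 3.97 FPKM in eggs (log2 fold change -3.35, SE 0.27), while Cdc20, its activator at metaphase, had 108.3 ± 15.2 and 84.3 ± 6.13. The inhibitors Fbxo43, which holds the metaphase II arrest, and Fbxo5 were held at 60.9 ± 8.44 and 68.4 ± 5.30 and at 174.8 ± 6.30 and 142.8 ± 2.40 FPKM. Cdc26, a small scaffold subunit, rose from 22.1 ± 3.78 to 70.2 ± 3.98 FPKM, and the ubiquitin conjugating enzymes Ube2c and Ube2s had 228.4 and 274.3 and 260.9 and 373.0 FPKM. Of 12 tested genes in cAMP control of prophase arrest 1 was lower, 1 higher and 4 held. Rgs2, a regulator of G-protein signalling, rose from 270.1 ± 29.3 to 581.9 ± 8.15 FPKM, Prkar1a, the regulatory subunit of protein kinase A, fell from 32.8 ± 5.95 to 14.6 ± 1.08, and the receptor gene Gpr3, which keeps cAMP high, had 24.2 ± 4.95 and 12.9 ± 0.548 (log2 fold change -0.88).

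Kinetochore and spindle checkpoint genes were called at rates near those of all transcripts. Of 41 tested, 12 were lower (29.3%), 4 higher (9.76%) and 8 held (19.5%), and their share was 0.731 ± 0.0177 and 0.837 ± 0.0126%. Mad2l1, the checkpoint protein MAD2, rose from 84.7 ± 14.2 to 241.9 ± 22.5 FPKM (log2 fold change 1.52), and Cenpn from 220.7 ± 16.0 to 458.1 ± 13.3. Bub1b and Bub3 were held at 198.3 ± 10.0 and 228.1 ± 15.5 and at 35.9 ± 2.73 and 36.0 ± 2.54 FPKM. Cenpt, which links the inner centromere to microtubules, fell from 15.8 ± 1.47 to 0.302 ± 0.0665 FPKM, and Birc5, survivin, fell from 402.4 ± 45.0 to 196.4 ± 19.7. In the meiotic cohesin and recombination list 5 of 26 were lower, 6 higher and 5 held, and Pttg1, securin, which guards cohesin until anaphase, rose from 646.5 ± 110.9 to 1866.7 ± 190.8 FPKM. Smc3 and Wapl, of the cohesin ring and its release, rose from 30.3 ± 3.06 to 64.3 ± 2.67 and from 39.6 ± 9.99 to 95 ± 10.8 FPKM, and Mael, of the piRNA pathway, fell from 24.2 ± 4.74 to 2.12 ± 0.519.

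The spindle and its building blocks differed. Tubulin isotypes were depleted, with 9 of 15 lower, 0 higher and 1 held (median -1.95), and their share went from 0.314 ± 0.0483 to 0.103 ± 0.0142%. Tuba4a fell from 117.5 ± 18.6 to 4.56 ± 0.938 FPKM, Tubb4b from 211.3 ± 41.6 to 14.1 ± 2.12 and Tuba3a, the most abundant, from 221.4 ± 43.6 to 57.0 ± 7.71, while Tubb3 was held at 71.5 ± 17.3 and 67.9 ± 10.5. Of 49 genes of the acentriolar spindle and kinesins 13 were lower, 4 higher and 10 held (median -0.28). Kif3b, a motor subunit, rose from 1.13 ± 0.204 to 2.96 ± 0.408 FPKM, Kif20b from 87.5 ± 10.5 to 210.9 ± 17.0 and Ckap5, a microtubule polymerase, from 20.7 ± 2.74 to 44.9 ± 2.91, whereas Miip and Tacc3 fell from 13.6 ± 1.65 to 0.687 ± 0.239 and from 282.4 ± 36.4 to 114.3 ± 8.06. Tpx2, a spindle assembly factor, had 70.3 ± 2.22 and 117.5 ± 2.78 FPKM, and Haus3, the most abundant of the list, had 743.5 ± 62.3 and 499.8 ± 38.5.

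Of the actin nucleation and cortex list, many members were held, with 12 of 31 held, 7 lower and 2 higher (median 0.01, between -0.01 and 0.13 over the alternatives). Actr2, a subunit of the branching complex ARP2/3, rose from 11.8, 14.2, 22.5 and 17.2 FPKM to 71.6, 66.8, 60.0 and 67.2 FPKM (log2 fold change 2.05, SE 0.17), and Fmn2, the formin that moves the oocyte spindle, from 17.7, 19.9, 31.1 and 18.4 FPKM to 71.3, 68.1, 67.3 and 68.2 FPKM (1.70, SE 0.16). Spire1, the partner of FMN2, was held at 65.5 ± 6.78 and 81.5 ± 3.90 FPKM and Cfl1, cofilin, at 1138.9 ± 82.9 and 1118.0 ± 181.9. Arpc1a, another ARP2/3 subunit, fell from 39.3 ± 7.29 to 4.91 ± 0.812 FPKM.

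Several genes of message decay rose. In the BTG4, CCR4-NOT and poly(A) tail decay list 7 of 30 were lower, 7 higher and 7 held, and its share went from 0.473 ± 0.016 to 0.895 ± 0.0325%. Btg4 (chr9:51060901-51119875, plus strand) had 981.5, 1108.3, 1246.0 and 977.3 FPKM in GV oocytes and 2965.3, 2796.0, 2733.6 and 2779.9 in eggs (log2 fold change 1.39, SE 0.09, limma adjusted p = 1.73e-07). The catalytic deadenylases rose too, Cnot7 from 61.4 ± 10.4 to 140.6 ± 11.4 FPKM, Cnot6l from 23.9 ± 5.23 to 60.4 ± 7.09 and Cnot6 from 2.28 ± 0.374 to 4.96 ± 0.401. Of the other subunits, Cnot3 rose from 2.39 ± 0.560 to 7.54 ± 0.206 FPKM, the scaffold Cnot1 was held at 10.5 ± 1.26 and 9.99 ± 0.159, and Cnot9 fell from 62.4 ± 3.72 to 10.8 ± 0.908. Pan3, of the PAN2-PAN3 deadenylase, and Zcchc6, which adds uridines to short tails, rose from 5.51 ± 0.686 to 14.5 ± 0.863 and from 5.07 ± 0.900 to 12.1 ± 0.766 FPKM. Pabpc1l, the poly(A)-binding protein of oocytes, fell from 90.5 ± 26.1 to 7.84 ± 1.69 FPKM, and Ythdf2, a reader of methylated adenosine, from 54.3 ± 17.9 to 22.2 ± 2.30.

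Of 21 decapping genes 3 were higher, 4 lower and 1 held, with a median of 0.45. Dcp1a and Dcp2, the decapping pair, had 113.6 ± 7.19 and 163.6 ± 10.8 FPKM (log2 fold change 0.53) and 7.28 ± 0.870 and 14.6 ± 1.57 FPKM (1.01). Lsm5, of the ring that binds shortened tails and the most abundant of the list in eggs, had 146.4 ± 34.8 and 201.2 ± 32.0 FPKM with overlapping stages. Smg1, a kinase of nonsense-mediated decay, rose from 1.82 ± 0.127 to 4.44 ± 0.353 FPKM, and Patl2, an oocyte repressor of translation, fell from 48.9 ± 14.0 to 2.91 ± 0.271 (log2 fold change -4.03). The list of storage and translational control had 33 tested genes. Of these 11 were lower (33.3% against 34.8% of all transcripts), 5 higher (15.2% against 7.65%) and 5 held (median -0.68). Cpeb1 (chr7:81347026-81455465, minus strand) had 137.2, 140.0, 108.5 and 135.3 FPKM in GV oocytes and 25.9, 24.1, 27.6 and 24.9 in eggs (log2 fold change -2.34, SE 0.10). Its relative Cpeb4 rose from 5.92 ± 0.846 to 14.3 ± 0.956 FPKM, and Dazl, a translational activator, from 233.7 ± 26.9 to 490.1 ± 18.0. Cpsf4l, named for its likeness to a cleavage factor, fell from 105.0 ± 10.0 to 6.99 ± 1.16 FPKM and the scaffold Sympk rose from 0.755 ± 0.189 to 3.01 ± 0.617. Zar1, which organises stored messages in a compartment around mitochondria, was held at 306.0 ± 47.5 and 293.6 ± 55.5 FPKM and its paralogue Zar1l fell from 116.5 ± 14.5 to 11.8 ± 1.81. Ybx2, a message-coating protein of germ cells, was low and fell from 6.50 ± 1.13 to 1.97 ± 0.432 FPKM.

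A list of 21 messages known from the literature to be stored and then polyadenylated in maturation moved against the general trend. Of these 9 were higher, 1 lower and 3 held, with a median log2 fold change of 0.74, and 9 of 21 is 42.9% against 7.65% of all transcripts tested. Their share went from 1.46 ± 0.0764 to 2.70 ± 0.072%. Like the other lists, this one was chosen with earlier results of these data known, so these counts are a description and no test. The higher ones included Orc6, Btg4, Cnot6l, Cnot7, Dazl, Dcp2 and Slbp. Also higher were Hprt, a purine salvage enzyme (98.4 ± 18.4 to 320.0 ± 23.4 FPKM), and Spin1, a reader of histone methylation (647.5 ± 48.4 to 1307.6 ± 69.0). The lower one was Cdc6, a licensing factor (32.2 ± 3.78 to 7.73 ± 1.96 FPKM). Held were Bub1b, Bub3 and Ccne2, cyclin E2 (9.36 ± 1.21 and 9.80 ± 2.83). The rest had log2 fold changes between -0.63 and 0.80. Among these were Tex19.1 (39.9 and 25.7 FPKM), Plat, tissue plasminogen activator (1019.5 and 699.1), Nin (21.5 and 35.7) and Il7 (39.9 and 69.3). The others were Ccnb1, Mos, Dcp1a and Tpx2. Papd4, a cytoplasmic poly(A) polymerase outside this list, had 27.2 and 47.0 FPKM.

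Cytoplasmic polyadenylation elements are U-rich, and TTTTAT and TTTTAAT are their usual letters. The ends of some transcripts that rose are shown here because they hold such a motif in their last 100 bases, with TTTTAT or TTTTAAT and the poly(A) signal AATAAA in capitals, read 5′ to 3′ on the transcript strand from GENCODE release M21 (GRCm38).
Btg4, chr9:51119801-51119830, plus strand: aaatccctTTTTATgtctttttaaaagttt
Orc6, chr8:85308009-85308038, plus strand: tttttaaaTTTTATttcactaaatgttata
Spin1, chr13:51152477-51152506, plus strand: taagtaatTTTTATaattatgatgtaactc
Cnot7, chr8:40493036-40493062, minus strand: aggtacaTTTTATatcAATAAAaatac
Actr2, chr11:20062316-20062345, minus strand: cttctTTTTAATtaagaaAATAAAtaagat
Bcl2l10, chr9:75351590-75351619, plus strand: tTTTTAATaacttcaaattcttAATAAAtg
Each begins between 75 and 27 bases before the annotated end of the transcript. The ends of 4 messages that fell, and of Mos and Ccnb1, hold AATAAA but neither U-rich motif in these windows.
Ckb, chr12:111669369-111669398, minus strand: gctgacactgaaAATAAActagggtttggc
Upp1, chr11:9136134-9136163, plus strand: caactcctgggcAATAAAtctattttttca
Ubb, chr11:62553173-62553202, plus strand: ttaaaaaatgttAATAAAggttttgttgca
Rpl24, chr16:55971400-55971429, plus strand: agcagagttggaAATAAAgctctatcttta
Mos, chr4:3870661-3870690, minus strand: atatttttaggaAATAAAgttaccacgaac
Ccnb1, chr13:100778656-100778685, minus strand: ctttatgttgctAATAAAcatagttttcga
The annotated end need not be the end used in oocytes, and the genes were picked by name.

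Over all transcripts the motifs were unevenly spread. One annotated protein-coding transcript was taken for 8748 of the 10427 tested names, or 83.9%, and its sense strand was searched for exact matches, in which TTTTAAT and AATAAA may share letters. TTTTAT or TTTTAAT was in the last 100 bases of 11.1% of the lower transcripts (342 of 3073), 24.5% of the held ones and 33.3% of the higher ones (211 of 634). Over all annotated transcripts of this kind, 20966 in number, 17.1% held it. The order was the same in the last 50 bases (6.83, 13.3 and 19.4%) and in the last 200 (16.9, 36.4 and 47.8%). The median log2 fold change was -0.60 for the 6988 transcripts with 0 copies, 0.01 for the 1467 with 1 copy and 0.09 for the 293 with 2 or more. Other motifs were spread more evenly, with the signal AATAAA in 61.7% of lower and 72.7% of higher transcripts, the AU-rich pentamer ATTTA in 18.3 and 28.4%, and TGTANATA, the letters bound by Pumilio proteins, in 4.39 and 6.31%.

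Base composition and length moved with the same calls. The median GC content of the 3′ UTR was 47.13% in lower, 41.18% in held and 38.51% in higher transcripts, and the median transcript length was 2324, 3522 and 2904 bases. From the lowest to the highest quintile of 3′ UTR GC content the median log2 fold change went from 0.15 to -1.31 through -0.03, -0.37 and -0.85, and from the shortest to the longest quintile of transcript length it went from -0.97 to 0.12. Since the motifs are free of G and C, they were also read within quintiles. In each of the 5 quintiles of GC content the transcripts with a motif had the higher median, at 0.34 against 0.08 in the lowest quintile and -0.59 against -1.39 in the highest. In the shortest quintile of transcripts the gap was widest, with medians of 0.44 and -1.15 and with 27.8 and 6.93% called higher. Short transcripts thus included both the ribosomal and respiratory genes that fell (median lengths of 910 and 865 bases in the lists of the large subunit and of respiration, with the motif in 13.0 and 6.67% of them) and a set that rose. These are descriptions across transcripts, which share libraries, length and base composition and are not independent replicates.

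**Figure D5:**
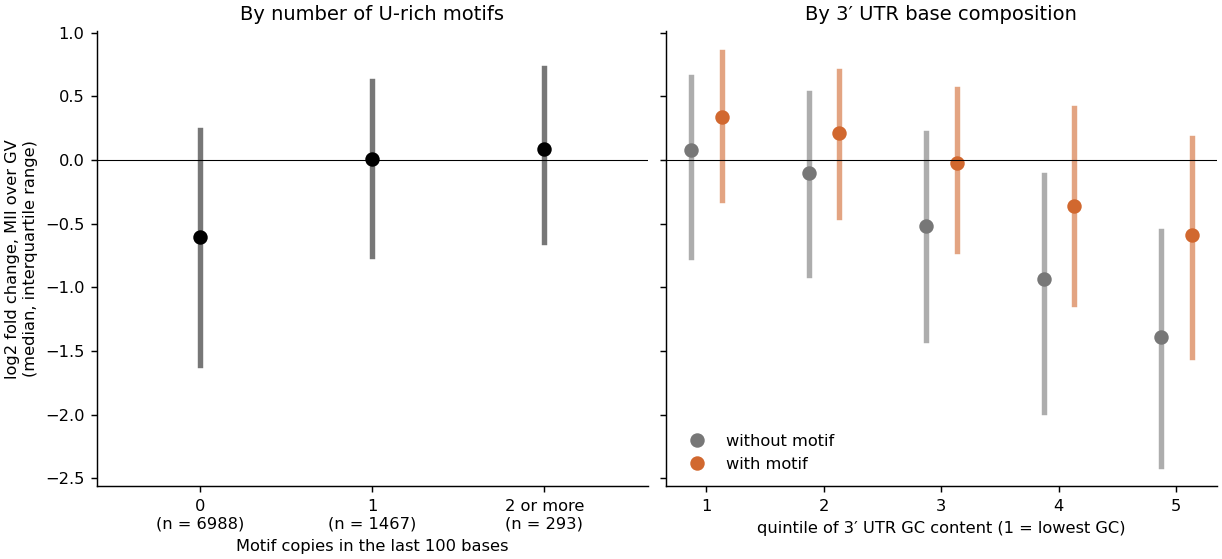
Median log2 fold change from WT GV oocytes to WT MII eggs, with the interquartile range as bars. Left, by the number of U-rich motifs in the last 100 bases (-0.60, 0.01 and 0.09); right, by quintile of 3′ UTR GC content for transcripts with and without a motif, where the median with a motif is higher in each of the 5 quintiles.

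Markers of other cells changed in parts of their lists. C1qb, a complement gene in the list of blood and immune markers, had 53.5, 57.1, 54.6 and 57.9 FPKM in GV oocytes and 5.18, 7.73, 3.09 and 7.71 FPKM in eggs (log2 fold change -3.33, SE 0.25), while Hba-a1, Ptprc, Cd74, Adgre1 and C1qa of the same list were below 0.1 FPKM at both stages. Lyz2, of macrophages, reached 8.88 FPKM in egg replicate 1 and at most 0.0717 FPKM in the other egg libraries. Cyp19a1, aromatase, had 8.10 ± 1.43 and 13.5 ± 0.658 FPKM (log2 fold change 0.76), Kitl had 3.86 ± 0.497 and 5.87 ± 1.17 (0.59), and Nr5a2 went the other way, with 3.64 ± 0.215 and 2.38 ± 0.183 (-0.61). Of the blood and immune markers, Cd68 had 1.58 ± 0.615 and 2.22 ± 0.78 FPKM (log2 fold change 0.50) and Pecam1 had 13.8 ± 2.35 and 10.7 ± 0.67 (-0.34), both with overlapping stages. Cdh1, an oviduct marker that oocytes also express, had 11.7 ± 1.96 and 20.1 ± 1.78.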

How the data were processed

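RNA of WT GV oocytes and WT MII eggs, in pools, was amplified from oligo-dT primers by the Smart-seq2 protocol and sequenced by the authors, who deposited 1 table of FPKM values for all 16 libraries. The submitters' processing notes name TopHat2 2.1.1, Cufflinks 2.2.1 and the build mm10, and the gene annotation and the use of strand are not given in the sources used here. The floor of 1 FPKM that the methods describe is absent from the deposited FPKM values, which hold 76459 values between 0 and 1 in the 8 WT libraries. FPKM holds no counts, so no count model was used, and there are 0 spike-in entries. Overlapping genes, near copies and pseudogenes may share reads, and values of such genes are uncertain.

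Groups and replicate numbers came from the labels. Values below 1 FPKM were set to 1 and log2-transformed, entries whose mean over the 8 libraries reached 1 FPKM were kept, and stages were compared with limma 3.58.1 (R 4.3.3; linear model, empirical Bayes with an intensity trend) with Benjamini-Hochberg adjustment. Fold changes therefore understate changes of low transcripts. Entries at 1 FPKM or above and the share of the 100 most abundant entries were compared per library by two-sided exact permutation tests (SciPy 1.17.1). Nothing says that the pools came from separate females, so p-values measure only the spread between these pools, which may be technical in part. The fit was tested on simulated data, in which 199 of 200 transcripts changed 4-fold among 10981 were recovered with 1 false call. Up and down changes were equal in number there, and the other transcripts did not change, unlike in these data. The simulation therefore does not cover calls near 2-fold or changes of share that follow from the loss of other messages. Depth was estimated from the steps between FPKM values below 0.6 over 5816 names with 1 annotated transcript, and its precision cannot be turned into counting intervals for single values.

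The members and all 45 gene lists were chosen with earlier results of these data known, so counts in lists are descriptions. The lists of mitochondrially encoded messages and ribosomal RNAs were added after their values were seen. Of the list members, 1298 were found and 20 were not analysed here because their symbols did not match (Hspa1a, Hspa1b, Eno2, Hist3h2a, Gcna, Rec8, Syce3, Spo11, Ccna1, Tubb1, Ube2l6, Areg, Ereg, Gatm, Slc38a3, Foxj1, Hba-a2, Hbb-bs, Hbb-bt and Cdh5). Genes named in the text were taken by a rule, and a few results are not reported here. In each list these were the called members with the lowest and highest change, the most abundant member and up to 3 of textbook role. Over all transcripts they were the 12 largest falls and rises at 10 FPKM or above without overlap, with symbols other than Gm, Mir and Rik names, the 10 most abundant entries of each stage, and all stored messages and oocyte markers. Further members and markers beside these, such as Psma7, Gapdh, Kpna7, Polr2a, Eif4e1b, Sod1 and Ftl1, were chosen after their values were seen. Transcript ends were read from GENCODE M21 (GRCm38). Alternatives covered the floor, the filter, the scaling, the moderation, the fold in the call, a replicate block, all 16 libraries in 1 fit, entries summed per gene name and each library left out. Python 3.11.15, NumPy 2.4.6, pandas 2.3.3 and Matplotlib 3.10.9 were used.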

Additional observations from a re-analysis of the deposited data

Results flagged for a closer look

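Single libraries that stood apart from their stage were sought with Dixon's test in 491 sets of 4 values, and 43 (8.76%) exceeded the critical ratio for 4 values, where chance gives about 1 in 20. The number quoted for each gene is the gap of the farthest library to its nearest neighbour as a share of the whole range.

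GV replicate 3 accounted for 19 of them. It was high for several messages that rise in eggs, namely Fmn2 (0.837), Hprt (0.847, at 125.8 FPKM against 87.2 to 93.1), Prdx1 (0.834), Tet3 (0.842), Cdc26 (0.829), Snrnp27 (0.841), ND5 (0.92) and Bcl2l10 (0.891), and also for Rpl4 (0.843), which falls. It was low for Cpeb1 (0.85), Calr (0.852, at 153.0 against 195.1 to 202.4 FPKM), Cdt1 (0.872), Dnajb1 (0.863) and Map2k2 (0.84), which fall in eggs, and for Gdf9 (0.85), Zbed3 (0.839), Bmp15 (0.853), Becn1 (0.937) and the endothelial marker Pecam1 (0.963). Its values for Fmn2, Hprt, Cpeb1 and Calr stayed outside the range of the eggs. In the other GV libraries, replicate 1 was low for Ldhb (0.946) and high for the germ-cell helicase gene Ddx4 (0.899), replicate 2 was low for Mael (0.845) and replicate 4 for Atg5 (0.86).

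In eggs, replicate 1 alone held the macrophage gene Lyz2 (0.992), and it was low for COX2 (0.885) and Kdm1b (0.979) and high for ND4 (0.851). Replicate 2 was high for ND1 (0.835), Cox8a (0.885), Sdhb (0.843), Ooep (0.9) and Rgs2 (0.912). Replicate 3 was high for Cdc6 (0.894), Cdk2 (0.849), Gpr3 (0.943), Map2k1 (0.832), Plat (0.886) and Zar1 (0.924) and low for Cnot6 (0.874) and Gmnn (0.846). Replicate 4 was high for Ubb (0.831, at 716.9 against 514.9 to 549.0 FPKM) and Cox5a (0.861) and low for cofilin, Cfl1 (0.85). Several of these gaps are small in FPKM, as for COX2, with 13.1 against 13.5 in each of the others.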

How the results depend on the processing

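Counts of lower and held calls followed the fold and the filter more than the scaling. Lower transcripts numbered 3642 as reported, 2145 at a mean of at least 5 FPKM, where 6241 were tested, 2291 at 3-fold and 5486 by adjusted p alone. Higher ones numbered 801 as reported, 279 when limma tested against 2-fold (treat), 114 at 3-fold and 2738 by adjusted p alone. They numbered 575 at a mean of at least 5 FPKM. With the mitochondrially encoded and Rn18s-rs5 entries removed and the rest rescaled they numbered 1038, so for them the scaling mattered as well. Held ones numbered 1837 as reported, 4293 with a 2-fold width and 17184 without a filter, where 26329 entries were tested, most of them without spread after the floor, for which limma warns that its moderation is unreliable. With 1 library left out, lower calls were 3545 to 3736 and higher calls 759 to 893, the difference in entries at 1 FPKM or above was -1799.1 to -1688.8, and the rise of the share of the 100 most abundant was 11.51 to 12.26 percentage points, each with an exact permutation p of 0.0571, the smallest that 3 against 4 allow. No direction was reversed for the 248 named transcripts tested. With 1 FPKM added in place of the floor, the calls of Cnot6, Dcp2, Dnmt3a, Furin, Kif3b, Smg1 and Ube2d1 were lost. When limma tested against 2-fold, 37 of 183 named calls were lost, among them Bcl2l10, Cnot7, Cnot6l, Dazl, Slbp, Spin1, Prdx1, Rgs2, Tet3, H3f3a, H3f3b and Obox2. Without the mitochondrially encoded and Rn18s-rs5 entries, a setting chosen after seeing the data, those of Birc5 and Dnmt3a were lost. The medians of the lists for splicing, nucleoporins, histones, the anaphase-promoting complex, actin, BTG4 with CCR4-NOT, cumulus cells and blood changed sign under some alternative. Depth is known only as an estimate, so values under 1 FPKM carry no counting error here and were set to 1 in the fit.

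Replicate numbers shared by the stages gave no sign of pairs. The deviations of same-numbered libraries from their stage means correlated at -0.04, -0.121, -0.287 and -0.058, and none correlated best with its own number. With 4 libraries a stage a weak shared effect would not show. With a replicate block 3641 transcripts were lower, 802 higher and 1575 held, and the 183 lower and higher calls of named transcripts were unchanged, while 22 of 25 named held transcripts stayed held (all but Map2k1, Ooep and Ube2c).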
